A study of Mus musculus with 9 samples.

Results

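In this study, 10 genes of the cyclic AMP (cAMP) pathway were followed through all 9 RNA sequencing libraries of virus-specific memory T cells: the receptor genes Ptger4 and Adora2a, the adenylyl cyclase genes Adcy3 and Adcy7, the phosphodiesterase genes Pde3b, Pde4b, Pde4d and Pde7a, and the transcription factor genes Crem and Creb1. They are 10 of the 48663 gene rows of the deposited count table, and all 10 were among the 15738 genes with enough counts to test. The genes were chosen on their levels in these same groups, with results of these libraries known. Their levels, fold changes and calls are therefore a description, and no member's p-value is given.

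The cells were sorted from the spleens of mice 30 days after acute infection with lymphocytic choriomeningitis virus (LCMV, Armstrong strain), 3 libraries to a group. CD4 ThpokAD cells bound the GP66:I-Ab tetramer, a class II MHC molecule that carries a viral peptide, and came from Ox40-Cre+ Thpok fl/fl mice. Ox40-Cre acts in cells that switch on the costimulatory receptor gene Tnfrsf4 (Ox40), mostly activated CD4 T cells, and there removes Thpok (Zbtb7b), the transcription factor that holds T cells to the helper lineage. CD8 control cells bound the class I tetramer GP33:H-2Db and came from Ox40-Cre- mice. CD4 control cells bound GP66:I-Ab and also came from Ox40-Cre- mice. The labels do not say whether the Cre-negative mice carried floxed Thpok alleles, nor whether replicates were separate animals, so the spread between libraries may be technical. Effects of Cre itself and those of losing Thpok cannot be told apart. The same holds for lineage, peptide, tetramer and sort in CD8 against CD4 cells.

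Libraries held 16664474 to 38981516 counts. Zbtb7b averaged 0.807 ± 0.0953 CPM (counts scaled by library size) in CD4 ThpokAD cells, 20.8 ± 2.87 CPM in CD8 control cells and 44.97 ± 5.68 CPM in CD4 control cells (SD, n = 3 each), with all 3 CD4 ThpokAD libraries under 1 CPM. The T cell markers Cd3d, Cd3e and Cd3g summed to between 1559 and 2851 CPM in the 9 libraries. Cd8a and Cd8b1 together stood at 90.8 to 123 CPM in CD4 ThpokAD cells, 2830 to 3832 CPM in CD8 control cells and 17.8 to 27.9 CPM in CD4 control. Cd4 stood at 551 to 679 CPM in CD4 ThpokAD cells, 0.222 to 2.26 CPM in CD8 control cells and 1295 to 1409 CPM in CD4 control. Transcripts of B cell (4 genes, 21.5 to 53.5 CPM summed) and plasma cell markers (3 genes, 11.1 to 768 CPM) were present in every group. The 6 myeloid markers (Lyz2, Csf1r, Adgre1, Itgam, S100a8, S100a9) summed to 261 to 301 CPM in CD4 ThpokAD cells, 93.5 to 329 CPM in CD8 control cells and 142 to 243 CPM in CD4 control, so that CD4 ThpokAD lay wholly above CD4 control.

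Cyclic AMP is a second messenger. Ligands such as prostaglandin E2 and adenosine bind receptors that signal through the stimulatory G protein to adenylyl cyclases, which make cAMP from ATP, and phosphodiesterases break it down. Cyclic AMP releases the catalytic subunits of protein kinase A, which dampen T cell receptor signalling and phosphorylate CREB-family factors bound to cAMP response elements. The Crem gene encodes activating factors of this family and, from an internal promoter, the repressor ICER, which cAMP itself induces.

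Across the 10 genes, the widest spread between groups belonged to Crem, Pde4d and Pde4b. Their group means spanned 4.99, 3.24 and 1.71 on the log2 scale of CPM, and those of Creb1 and Pde7a spanned 0.33 and 0.26. The lowest and highest counts of a member in a library were 351 (Crem, CD8 control replicate 1) and 16145 (Adcy7, CD8 control replicate 3). Counting error is 5.34% of the lowest of these. The spread among 3 replicates was wider, with a coefficient of variation of 12.6% in the median over genes and groups, and up to 36.4% (Ptger4 in CD8 control).

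**Figure D1:**
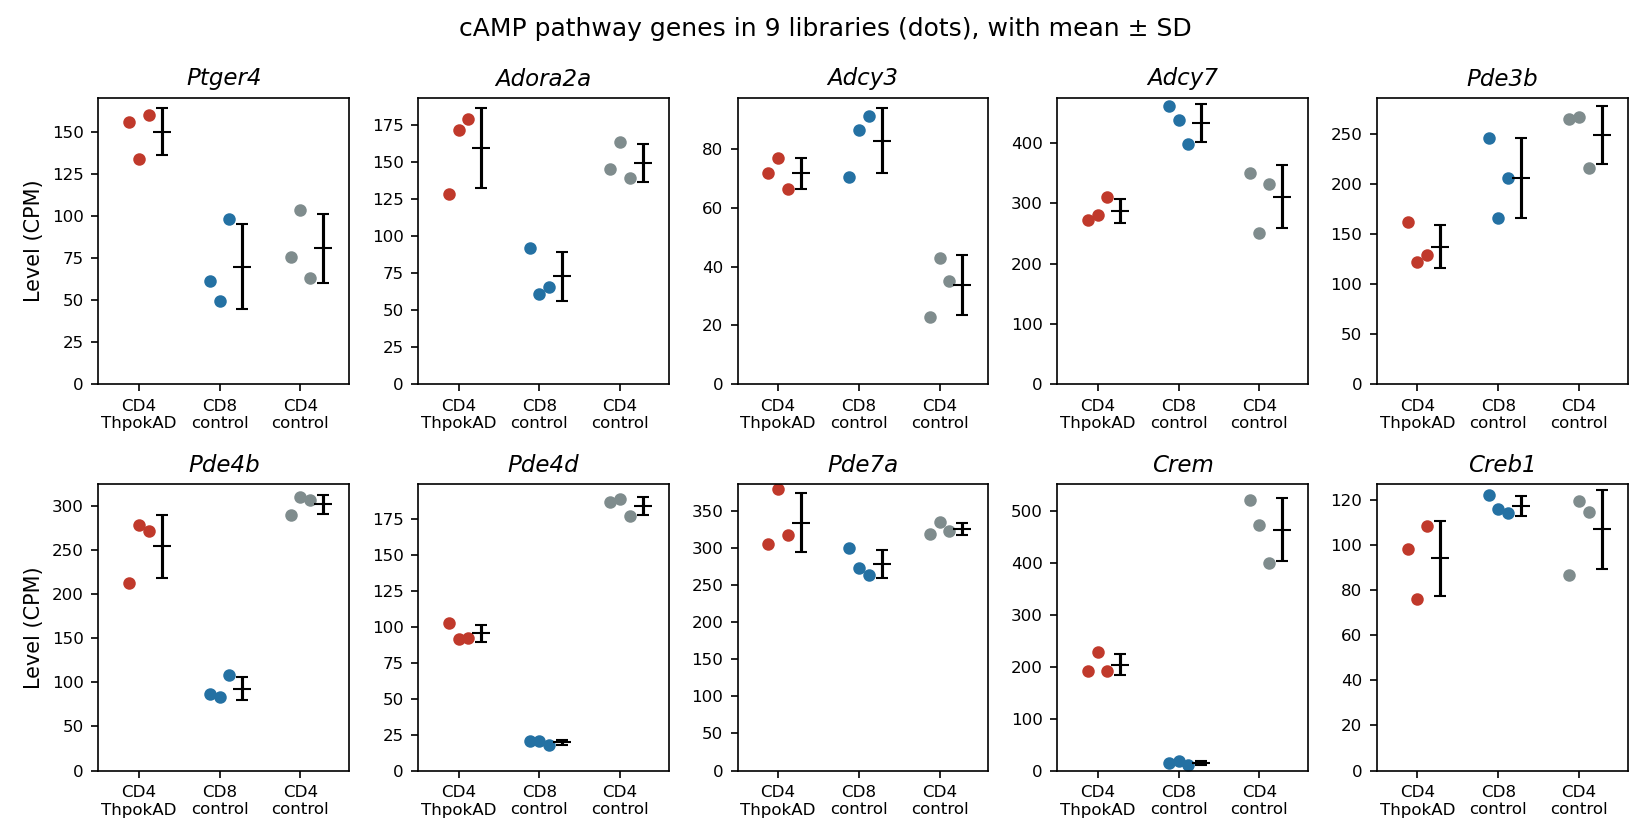
Level of each gene in CPM (vertical axes, each from 0) in the CD4 ThpokAD, CD8 control and CD4 control libraries. Dots are the 3 libraries of a group and black bars the mean ± SD. Crem, Pde4d and Pde4b separate the 3 groups fully, with CD8 control lowest and CD4 ThpokAD between, while Creb1 does not.

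Ptger4 encodes EP4, a prostaglandin E2 receptor that raises cAMP. It stood at 156, 134 and 161 CPM in CD4 ThpokAD cells, 61.7, 49.8 and 98.6 CPM in CD8 control cells and 75.7, 104 and 63.6 CPM in CD4 control. Every CD4 ThpokAD library was above every other library, while CD8 control and CD4 control overlapped. The log2 fold change of CD4 ThpokAD was 0.89 (SE 0.27) over CD4 control and 1.10 (SE 0.27) over CD8 control. That of CD8 control over CD4 control was -0.21 (SE 0.27). CD8 control replicate 3 was the highest of its group, and without it the log2 fold change of CD4 ThpokAD over CD8 control was 1.43. Exons on the other strand overlap 15.3% (the pseudogene Gm15937) and 1.23% (Ttc33) of the exon length of Ptger4, so some of its reads could belong to them. Of the 6 myeloid markers, Csf1r had its highest levels in the same group as Ptger4, at 91.0 to 133 CPM in CD4 ThpokAD cells, 20.3 to 49.8 CPM in CD8 control cells and 24.2 to 73.1 CPM in CD4 control. Adgre1 and Itgam also had their highest means there, but their libraries overlapped with CD8 control. Those of Adgre1 overlapped with CD4 control as well. The others ran otherwise: the highest mean was in CD8 control for Lyz2 and in CD4 control for S100a8 and S100a9. The part of myeloid cells in the Ptger4 levels was not tested.

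Adora2a encodes a receptor for adenosine, which likewise raises cAMP and restrains activated T cells. Its levels were 128, 171 and 178 CPM in CD4 ThpokAD cells, 91.6, 61.1 and 65.6 CPM in CD8 control cells and 145, 163 and 139 CPM in CD4 control. All 6 CD4 libraries lay above all CD8 control libraries, and the CD4 groups overlapped. The log2 fold change was 0.10 (SE 0.19) for CD4 ThpokAD over CD4 control, -1.03 (SE 0.19) for CD8 control over CD4 control and 1.13 (SE 0.19) for CD4 ThpokAD over CD8 control. In bulk libraries such as these, fewer cells that carry a transcript and less of it in each cell cannot be told apart.

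Adcy3 and Adcy7 encode membrane adenylyl cyclases, and Adcy7 held most of the cyclase transcripts. Adcy3 stood at 72.0, 76.8 and 66.3 CPM in CD4 ThpokAD cells, 70.4, 86.6 and 91.4 CPM in CD8 control cells and 22.7, 43.0 and 35.3 CPM in CD4 control. Its CD4 ThpokAD libraries overlapped with CD8 control and lay wholly above CD4 control. The log2 fold change over CD4 control was 1.09 (SE 0.23) for CD4 ThpokAD and 1.30 (SE 0.23) for CD8 control, comparisons that share the CD4 control libraries. For CD4 ThpokAD over CD8 control it was -0.21 (SE 0.23).

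The exons of Adcy3 overlap those of Cenpo on the other strand over 22.1% of their length, and the library kits as labelled do not mark strand. Cenpo averaged 14.0 CPM in CD4 ThpokAD cells, 20.9 CPM in CD8 control cells and 16.1 CPM in CD4 control, and was called in no comparison (edgeR quasi-likelihood test, adjusted p = 0.873, 0.572 and 0.421 for CD4 ThpokAD over CD4 control, CD8 control over CD4 control and CD4 ThpokAD over CD8 control). The NK cell markers Ncr1 and Klrb1c moved with Adcy3: their sum was 54.5 to 98.1 CPM in CD4 ThpokAD cells, 115 to 134 CPM in CD8 control cells and 5.20 to 14.8 CPM in CD4 control, where Ncr1 had no count. Klrb1c made up nearly all of that sum. Of the myeloid markers, Itgam ran the same way, at 17.2 to 46.6 CPM in CD4 ThpokAD cells, 26.5 to 39.4 CPM in CD8 control cells and 0.124 to 2.80 CPM in CD4 control. The means of Lyz2 also were lowest in CD4 control, with overlap. The others ran otherwise: Csf1r and Adgre1 had their lowest means in CD8 control (30.2 and 10.1 CPM), and S100a8 and S100a9 their highest in CD4 control. The part of these cells in the Adcy3 levels was not tested.

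Adcy7 ran another way, at 272, 280 and 310 CPM in CD4 ThpokAD cells, 460, 438 and 398 CPM in CD8 control cells and 350, 251 and 331 CPM in CD4 control. CD8 control was above every CD4 library, and the CD4 groups overlapped. Its log2 fold change was -0.11 (SE 0.14) for CD4 ThpokAD over CD4 control, 0.48 (SE 0.14) for CD8 control over CD4 control and -0.59 (SE 0.14) for CD4 ThpokAD over CD8 control. Divided by exon length, Adcy3 made up 21.1% of the summed cyclase level in CD4 ThpokAD, 17.1% in CD8 control cells and 10.7% in CD4 control. Adcy7 made up 78.2%, 82.6% and 88.2% in the same order of groups. The other 8 cyclase genes together held less than Adcy3 in each group.

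Pde4d and Pde4b encode cAMP-specific phosphodiesterases of the PDE4 family, the class that rolipram inhibits and that acts near the T cell receptor. Pde4d stood at 102, 91.5 and 92.5 CPM in CD4 ThpokAD cells, 20.2, 20.6 and 17.7 CPM in CD8 control cells and 187, 189 and 177 CPM in CD4 control. The 3 groups did not overlap, and CD4 ThpokAD lay between the others. The log2 fold change was -0.95 (SE 0.12) for CD4 ThpokAD over CD4 control, -3.24 (SE 0.13) for CD8 control over CD4 control and 2.29 (SE 0.13) for CD4 ThpokAD over CD8 control. With each library left out in turn, these stayed between -1.01 and -0.92, between -3.28 and -3.18, and between 2.22 and 2.32.

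Pde4b was close in the CD4 groups and low in CD8 control. It stood at 212, 278 and 271 CPM in CD4 ThpokAD cells, 86.9, 83.8 and 108 CPM in CD8 control cells and 289, 309 and 307 CPM in CD4 control. The highest CD4 ThpokAD library was just under the lowest CD4 control library. Its log2 fold change was -0.25 (SE 0.14) for CD4 ThpokAD over CD4 control, -1.70 (SE 0.15) for CD8 control over CD4 control and 1.45 (SE 0.15) for CD4 ThpokAD over CD8 control.

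Pde3b encodes a phosphodiesterase that cGMP inhibits and insulin signalling activates in fat and liver. It stood at 162, 122 and 129 CPM in CD4 ThpokAD cells, 246, 166 and 206 CPM in CD8 control cells and 265, 267 and 216 CPM in CD4 control. CD4 ThpokAD was the lowest of the 3 groups, with its highest library just under the lowest CD8 control library. The log2 fold change was -0.86 (SE 0.18) for CD4 ThpokAD over CD4 control, -0.27 (SE 0.18) for CD8 control over CD4 control and -0.58 (SE 0.18) for CD4 ThpokAD over CD8 control.

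Pde7a encodes a cAMP-specific phosphodiesterase with a high affinity for its substrate that is abundant in T cells. Its levels were 305, 380 and 318 CPM in CD4 ThpokAD cells, 300, 273 and 263 CPM in CD8 control cells and 319, 335 and 323 CPM in CD4 control. The CD4 groups overlapped and CD8 control lay slightly below both. The log2 fold changes were 0.04 (SE 0.11) for CD4 ThpokAD over CD4 control, -0.23 (SE 0.11) for CD8 control over CD4 control and 0.26 (SE 0.11) for CD4 ThpokAD over CD8 control.

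Set side by side per kilobase of exon, 16 phosphodiesterase genes that act on cAMP summed to 136 ± 12.5 CPM per kb in CD4 ThpokAD, 138 ± 13.9 in CD8 control cells and 182 ± 17.9 in CD4 control (SD, n = 3 each). Pde4d made up 5.92% of that sum in CD4 ThpokAD, 1.18% in CD8 control cells and 8.47% in CD4 control. Pde4b made up 17.7%, 6.46% and 15.7% in the same order. Pde7a held the most in CD4 ThpokAD (31.8%, against 26.1% in CD8 control cells and 23.2% in CD4 control). In both control groups Pde2a, a phosphodiesterase that cGMP stimulates, held the most, with 27.7% in CD4 ThpokAD, 44.6% in CD8 control cells and 35.1% in CD4 control. Pde2a itself averaged 232 ± 39.8 CPM in CD4 ThpokAD cells, 382 ± 82.3 CPM in CD8 control cells and 397 ± 100.5 CPM in CD4 control, and did not pass the test in any comparison. With the longest transcript in place of all exons as the length, Pde4d made up 10.4% in CD4 ThpokAD, 2.31% in CD8 control cells and 14.5% in CD4 control, and Pde4b made up more than Pde7a in both CD4 groups.

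**Figure D2:**
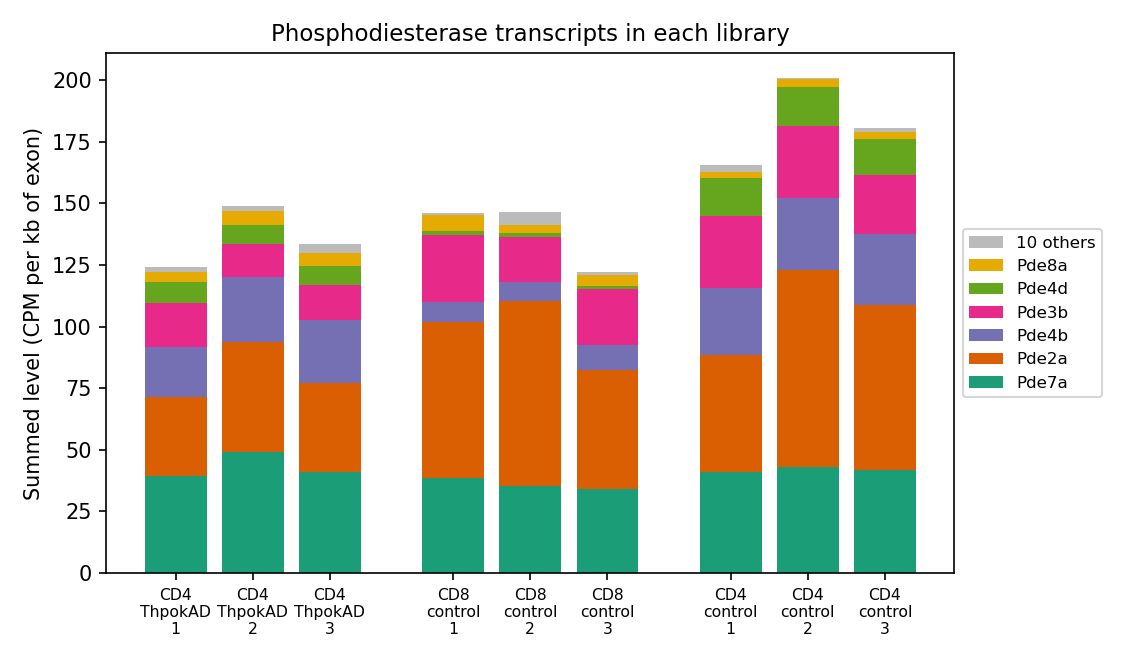
Summed level of the 16 cAMP phosphodiesterase genes in each library (vertical axis, CPM per kb of exon), with CD4 ThpokAD libraries left, CD8 control in the middle and CD4 control right. Coloured segments are genes, and the segments of Pde4d and Pde4b are thinnest in CD8 control.

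The windows around the RefSeq transcription starts (250 bases before to 50 after, GRCm38.p6) were read for the short site TGACG, on either strand, and the full palindrome TGACGTCA of the cAMP response element, which contains the short site. Windows of 6 of the 10 genes were read, 12 windows in all. No window was found for Pde3b, Pde7a or Adora2a. Crem was left out of this search, so its sites were not tested. Below are 1 window each of Pde4b and Pde4d, both lowest in CD8 control, and of the cyclase genes Adcy3 and Adcy7, both with their highest mean there. All are on the plus strand. Capitals mark the short site, which appears as CGTCA because it lies on the other strand.
Pde4b, chr4:102421305-102421604: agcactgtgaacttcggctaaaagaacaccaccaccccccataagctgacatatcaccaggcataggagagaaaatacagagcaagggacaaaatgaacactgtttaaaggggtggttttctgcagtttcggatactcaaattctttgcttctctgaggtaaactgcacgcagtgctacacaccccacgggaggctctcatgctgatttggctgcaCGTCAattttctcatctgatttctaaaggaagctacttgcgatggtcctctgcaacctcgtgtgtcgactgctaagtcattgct
Pde4d, chr13:108653927-108654226: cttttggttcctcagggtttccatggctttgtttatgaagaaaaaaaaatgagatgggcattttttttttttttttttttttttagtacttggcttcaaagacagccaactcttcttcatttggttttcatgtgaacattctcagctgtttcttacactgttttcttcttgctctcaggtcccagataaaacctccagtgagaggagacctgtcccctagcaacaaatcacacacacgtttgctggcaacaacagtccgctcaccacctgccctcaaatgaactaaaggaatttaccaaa
Adcy3, chr12:4133147-4133446: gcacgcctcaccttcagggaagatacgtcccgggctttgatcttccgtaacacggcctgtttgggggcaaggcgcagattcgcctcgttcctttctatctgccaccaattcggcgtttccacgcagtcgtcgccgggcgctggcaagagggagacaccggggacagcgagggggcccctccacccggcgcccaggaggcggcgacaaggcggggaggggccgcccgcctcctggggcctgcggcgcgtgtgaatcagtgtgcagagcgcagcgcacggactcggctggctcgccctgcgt
Adcy7, chr8:88282742-88283041: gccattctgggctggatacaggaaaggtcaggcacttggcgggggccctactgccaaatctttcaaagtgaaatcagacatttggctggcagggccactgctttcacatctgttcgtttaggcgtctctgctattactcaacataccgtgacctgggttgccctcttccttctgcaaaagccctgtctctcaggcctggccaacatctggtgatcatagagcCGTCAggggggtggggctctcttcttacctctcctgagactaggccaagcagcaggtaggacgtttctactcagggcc

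The Pde4b window holds the short site from 34 bases before the start and the Adcy7 window from 28 bases before. The Pde4d and Adcy3 windows do not hold these letters. Over the 12 windows of the 6 genes, 2 held the short site and 0 the full site, against 20.8% and 1.79% of all 32851 windows in the table. Pde4b and Adcy7 have other starts whose windows lack it, and gene-level counts do not tell which start was used.

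Crem, the factor gene that cAMP induces, varied the most. It stood at 192, 228 and 192 CPM in CD4 ThpokAD cells, 14.7, 18.8 and 11.1 CPM in CD8 control cells and 521, 472 and 399 CPM in CD4 control. The groups did not overlap: CD8 control was lowest, CD4 control highest and CD4 ThpokAD between them. Its log2 fold change was -1.19 (SE 0.19) for CD4 ThpokAD over CD4 control, -4.97 (SE 0.23) for CD8 control over CD4 control and 3.78 (SE 0.21) for CD4 ThpokAD over CD8 control. The annotation (GENCODE M21) lists 39 transcripts for Crem, which the counts pool, so activator and ICER forms were not told apart. A transcript on the other strand, Gm6225, overlaps 8.01% of Crem's exon length and averaged 0.790 to 1.58 CPM in the 3 groups.

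Creb1 encodes CREB itself, which is controlled largely by phosphorylation. It stood at 98.5, 76.0 and 108 CPM in CD4 ThpokAD cells, 122, 116 and 114 CPM in CD8 control cells and 86.9, 120 and 115 CPM in CD4 control. CD4 control overlapped with both other groups. The log2 fold changes were -0.18 (SE 0.17) for CD4 ThpokAD over CD4 control, 0.13 (SE 0.17) for CD8 control over CD4 control and -0.32 (SE 0.17) for CD4 ThpokAD over CD8 control.

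The summed marker lists of helper subsets were low in CD8 control, as were Crem and Pde4d. The Treg list (Foxp3, Il2ra, Ctla4, Ikzf2) summed to 369 to 530 CPM in CD4 ThpokAD cells, 31.5 to 42.1 CPM in CD8 control cells and 315 to 344 CPM in CD4 control. Most of that sum in both CD4 groups was Ctla4, which averaged 321 CPM in CD4 ThpokAD cells, 7.96 CPM in CD8 control cells and 263 CPM in CD4 control. Foxp3 and Ikzf2 had the same order of group means as Ctla4. Foxp3 averaged 29.2 CPM in CD4 ThpokAD cells, 0.0918 CPM in CD8 control cells and 2.28 CPM in CD4 control. Ikzf2 averaged 57.1, 3.08 and 47.5 CPM in the same order. Il2ra ran otherwise, at 28.2, 24.8 and 13.5 CPM, with its lowest mean in CD4 control. The Tfh list (Cxcr5, Bcl6, Pdcd1) summed to 355 to 757 CPM in CD4 ThpokAD cells, 49.5 to 73.9 CPM in CD8 control cells and 476 to 702 CPM in CD4 control. Within it, Cxcr5 alone lay in the order of Crem without overlap, at 33.3 to 143 CPM in CD4 ThpokAD cells, 12.2 to 27.7 CPM in CD8 control cells and 178 to 258 CPM in CD4 control. Bcl6 averaged 66.3 CPM in CD4 ThpokAD cells, 17.5 CPM in CD8 control cells and 104 CPM in CD4 control, with overlap between the CD4 groups. Pdcd1, with the highest mean of the list in each group, averaged 416, 24.9 and 254 CPM in the same order of groups. Dendritic cell markers (Flt3, Xcr1, Siglech, H2-Aa) summed to 104 to 237 CPM in CD4 ThpokAD cells, 42.9 to 54.9 CPM in CD8 control cells and 119 to 237 CPM in CD4 control, with Siglech at 0 in both CD4 groups. H2-Aa carried that sum, with means of 167 CPM in CD4 ThpokAD cells, 32.9 CPM in CD8 control cells and 148 CPM in CD4 control. Xcr1 ran another way, at 17.6, 13.2 and 10.1 CPM in the same order, and every CD8 control library was above every CD4 control library. For none of the 3 sums did the CD4 ThpokAD libraries lie between the control groups without overlap, though for Cxcr5 they did. The part of these cells in the levels was not tested.

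Per kilobase of exon, the order of the genes differed between groups. In CD4 ThpokAD, Adora2a was highest at 52.0 ± 8.86 CPM per kb, and its libraries overlapped with those of Pde7a (43.1 ± 5.17) and Adcy7 (42.7 ± 2.98), with Crem next at 34.6 ± 3.48. In CD8 control, Adcy7 was highest at 64.2 ± 4.68 CPM per kb, apart from Pde7a at 36.0 ± 2.46, and Crem and Pde4d came last at 2.52 ± 0.656 and 1.63 ± 0.132. In CD4 control, Crem was highest at 78.7 ± 10.4 CPM per kb, apart from Adora2a at 48.7 ± 4.14, Adcy7 at 46.2 ± 7.80 and Pde7a at 42.0 ± 1.02. Adcy3 came last there at 5.39 ± 1.64, overlapping with Creb1 at 7.79 ± 1.28. With the longest transcript as the length, Crem ranked first in CD4 ThpokAD too.

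Counted over the 10 genes, 4 were called in CD4 ThpokAD over CD4 control (adjusted p under 0.05 by edgeR's quasi-likelihood test over all genes): Adcy3 as higher and Pde3b, Pde4d and Crem as lower. Of all tested genes, 2.74% were called in that comparison, 1.81% as higher and 0.928% as lower. The libraries of 6 of the 10 did not overlap, against 25.7% of all genes. Pde4d alone kept its call whichever library was left out. Adcy3 lost it without any 1 of the 9 libraries, with a log2 fold change of 0.87 to 1.30. Pde3b lost it without any 1 CD4 library or CD8 control replicate 3 (-0.997 to -0.777), and Crem without CD4 control replicate 1 or 2 or CD4 ThpokAD replicate 1 or 3 (-1.29 to -1.10). The median log2 fold change of the 10 was -0.15, against 0.0035 for all tested genes.

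In CD8 control over CD4 control, 5 of the 10 were called: Adcy3 as higher and Adora2a, Pde4b, Pde4d and Crem as lower. All 5 kept the call whichever library was left out. Of all tested genes, 11.7% were called, 5.13% as higher and 6.55% as lower, and libraries did not overlap for 33.9%, against 7 of the 10. The median of the 10 was -0.25, against 0.0101 for all tested genes.

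In CD4 ThpokAD over CD8 control, 6 of the 10 were called: Ptger4, Adora2a, Pde4b, Pde4d and Crem as higher and Adcy7 as lower. Of all tested genes, 6.54% were called, 4.63% as higher and 1.91% as lower, and libraries did not overlap for 27.1%, against 9 of the 10. Ptger4 lost its call without any 1 library but CD8 control replicate 3 (log2 fold change 0.89 to 1.43), and Adcy7 without any 1 library but CD4 control replicate 2 (-0.65 to -0.55). The median of the 10 was 0.68, against -0.0059 for all tested genes. The choice of the genes used all 3 comparisons, which share libraries, so nothing is read from these counts.

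**Figure D3:**
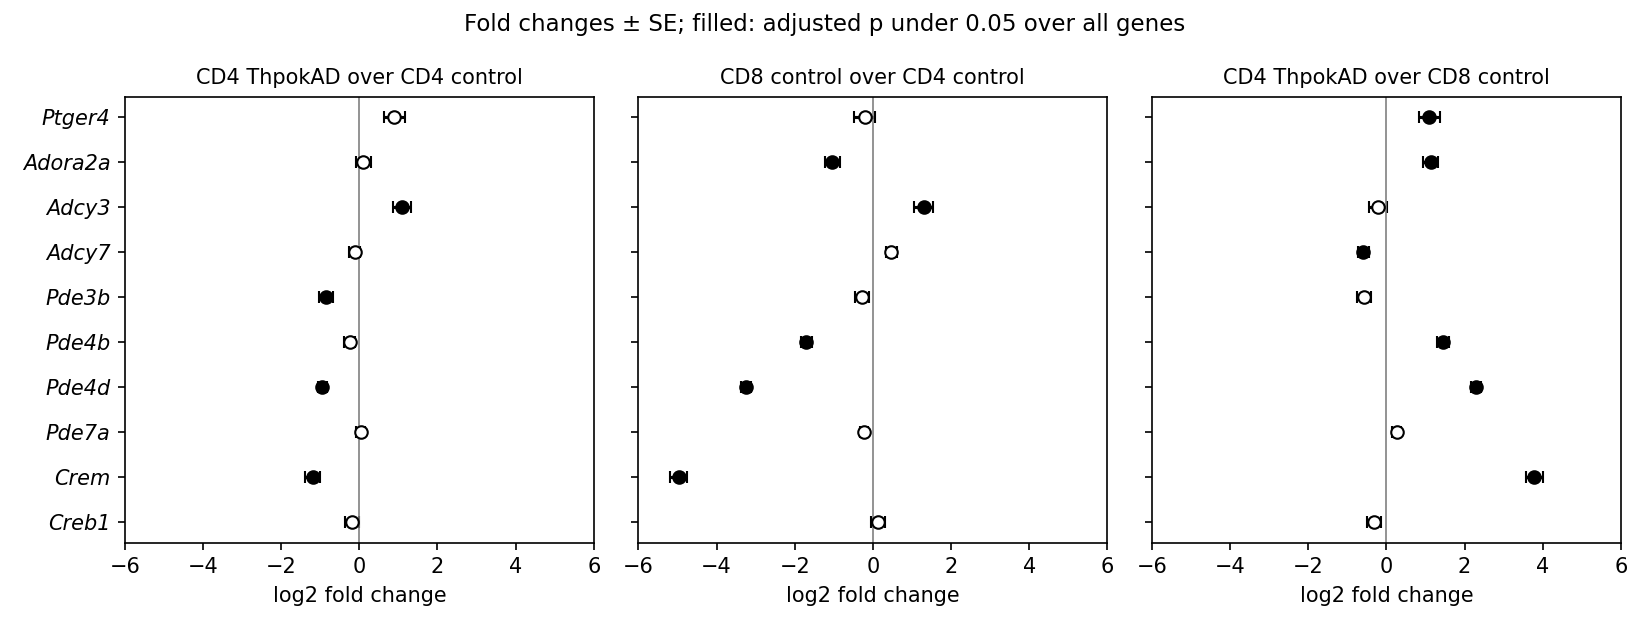
Log2 fold change of each gene (horizontal axis) with its SE as bars, in CD4 ThpokAD over CD4 control (left), CD8 control over CD4 control (middle) and CD4 ThpokAD over CD8 control (right). Filled dots passed an adjusted p of 0.05 over all genes; Crem and Pde4d stand farthest from 0 in the middle and right panels.

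Beyond the 10 genes, 90 other genes of the pathway were listed by role, and 67 had enough counts to test. These lists, too, were drawn up with earlier results of these data known. Their counts and p-values are therefore a description. In CD4 ThpokAD over CD4 control, 1 of them was higher and 2 were lower (edgeR quasi-likelihood test, p adjusted over all genes by Benjamini-Hochberg, the test behind every adjusted p below). Of all tested genes, 1.81% were called higher and 0.928% lower there, so these few calls say little about the pathway. Gem, a small GTPase that CREB induces, averaged 245 CPM in CD4 ThpokAD cells, against 98.2 CPM in CD4 control (log2 fold change 1.32, SE 0.25, adjusted p = 0.0297). Adk, the kinase that removes adenosine, averaged 29.9 CPM in CD4 ThpokAD cells, against 75.8 CPM in CD4 control (log2 fold change -1.34, SE 0.27, adjusted p = 0.035). Abcc4, which encodes an exporter of cAMP, averaged 28.2 CPM in CD4 ThpokAD cells, against 59.4 CPM in CD4 control (log2 fold change -1.07, SE 0.23, adjusted p = 0.045). Libraries did not overlap for any of the 3, which were picked by their calls. The same held for 25.7% of all tested genes.

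None of those calls held whichever library was left out. Gem lost its call without any 1 CD4 control library, CD4 ThpokAD replicate 1 or 3, or CD8 control replicate 3 (adjusted p = 0.0244 to 0.12 over all such fits). Adk lost it without any 1 CD4 library or CD8 control replicate 1 or 2 (0.0432 to 0.124), and Abcc4 without any 1 CD4 library or CD8 control replicate 1 (0.0303 to 0.167). Among the receptor, G protein, cyclase, phosphodiesterase, kinase and anchor genes none passed. The second prostaglandin E2 receptor gene of this class, Ptger2, averaged 6.79 CPM in CD4 ThpokAD cells, against 9.20 CPM in CD4 control (adjusted p = 0.816). Prkaca, the catalytic subunit of protein kinase A, averaged 52.5 CPM in CD4 ThpokAD cells, against 44.3 CPM in CD4 control (adjusted p = 0.752), and the regulatory subunit Prkar1a 997 and 978 CPM (adjusted p = 0.958). Pde4a averaged 3.90 CPM in CD4 ThpokAD cells, against 2.99 CPM in CD4 control (adjusted p = 0.945). Gnas, the stimulatory G protein, was at 5.39 to 9.30 CPM in all 9 libraries and overlaps the exons of Nespas and Gm20721, so its counts are uncertain.

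In CD8 control over CD4 control, 19 of the 67 were lower and 0 higher, against 6.55% and 5.13% of all tested genes. At an unadjusted p under 0.05, 2 were higher, and DESeq2's Wald test called 1 higher. All 11 genes of the CREB target list were lower, with a median log2 fold change of -5.36 that is the same with Areg, without counts in CD8 control, at its bound. Without that list, 8 of 56 were lower. The orphan nuclear receptor Nr4a2 averaged 2.36 CPM in CD8 control cells and 727 CPM in CD4 control (log2 fold change -8.29, SE 0.30, adjusted p = 1.90e-06). The phosphatase gene Dusp1 averaged 48.6 CPM in CD8 control cells and 973 CPM in CD4 control (log2 fold change -4.32, SE 0.29, adjusted p = 3.17e-05). Areg, a growth factor gene, was at least 973-fold lower in CD8 control, which had 0 counts (floor of 3 counts over the group), against 34.3 CPM in CD4 control. These genes also answer to T cell receptor and stress signals, and the list alone does not tell which.

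Sik1, a kinase that CREB induces and that holds CREB's coactivators out of the nucleus, shared with Crem the low level in CD8 control. It stood at 121, 141 and 130 CPM in CD4 ThpokAD cells, 4.01, 3.78 and 2.74 CPM in CD8 control cells and 154, 142 and 136 CPM in CD4 control. The CD4 groups overlapped and CD8 control lay far below. The log2 fold change of CD8 control over CD4 control was -5.37 (SE 0.19, adjusted p = 1.90e-06), and that of CD4 ThpokAD over CD4 control was -0.14 (SE 0.16, adjusted p = 0.763). Nr4a1 stood at 2040 ± 320 CPM in CD4 ThpokAD cells, 4.57 ± 2.72 CPM in CD8 control cells and 2303 ± 166 CPM in CD4 control (adjusted p = 0.877 for CD4 ThpokAD over CD4 control).

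**Figure D4:**
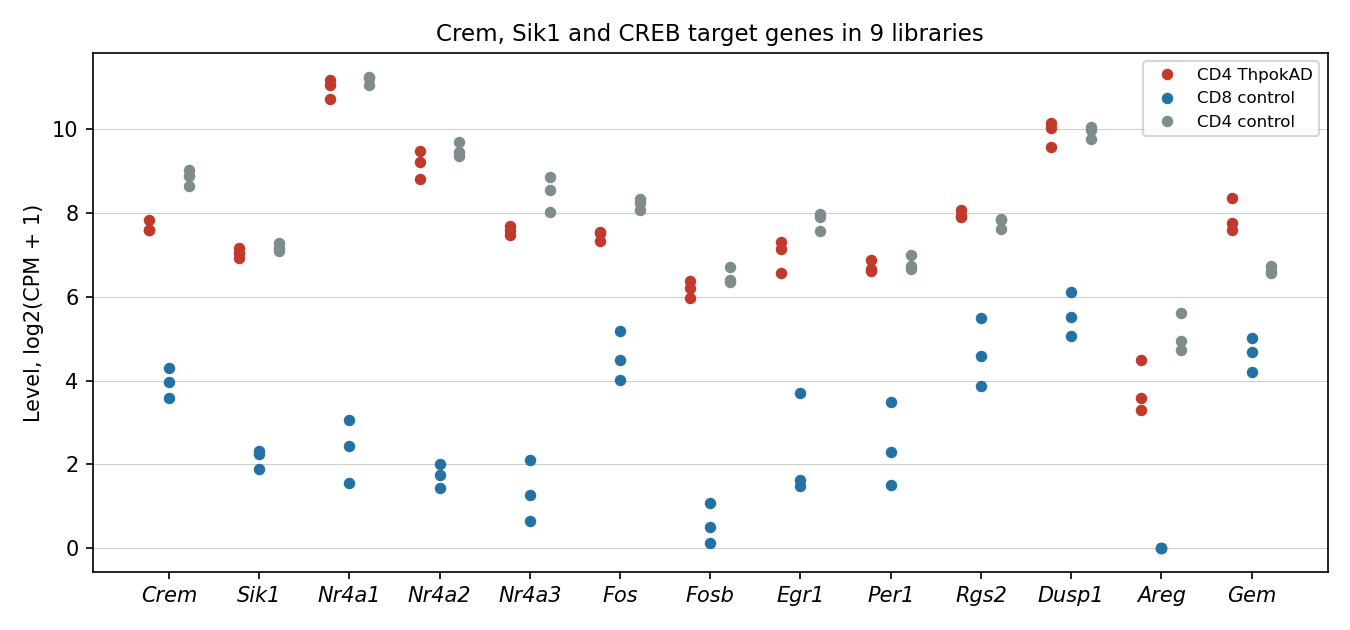
Level of Crem, Sik1 and the 11 CREB target genes as log2(CPM + 1) (vertical axis) in the 9 libraries, with CD4 ThpokAD in red, CD8 control in blue and CD4 control in grey. CD8 control lies lowest for every gene, and Gem, the target called in CD4 ThpokAD over CD4 control, averages 245 CPM against 98.2 CPM in CD4 control.

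The other genes lower in CD8 control than in CD4 control included Adk (19.0 against 75.8 CPM, adjusted p = 0.00197), Sik3, a relative of Sik1 (42.3 against 85.8 CPM, adjusted p = 0.0127), and the anchor genes Ezr and Akap13, whose products bring protein kinase A to its sites. Ezr averaged 426 CPM in CD8 control cells and 739 CPM in CD4 control (adjusted p = 0.00411). Akap13 averaged 598 CPM in CD8 control cells and 940 CPM in CD4 control (adjusted p = 0.0112). These 4 calls held whichever library was left out. Those of Prkar1a (682 against 978 CPM, adjusted p = 0.0329), the CREB relative Atf1 (35.6 against 63.3 CPM, adjusted p = 0.0246) and the receptor partner Ramp1 (0.714 against 12.2 CPM, adjusted p = 0.0452) did not. Prkar1a lost its call without CD4 control replicate 2 or 3, CD4 ThpokAD replicate 1, or either of CD8 control replicates 1 and 2 (0.0169 to 0.116). Atf1 lost it without CD4 control replicate 2 or 3 or CD8 control replicate 1 or 2 (0.0187 to 0.0925), and Ramp1 without any 1 CD4 library or CD8 control replicate 3 (0.0259 to 0.139).

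In CD4 ThpokAD over CD8 control, 16 of the 67 were higher and 1 lower, against 4.63% and 1.91% of all tested genes. The 16 were the 11 CREB targets (median log2 fold change 4.57), Sik1, Sik3, Ezr, Prkar1a and Ptgir. Ptgir, the receptor for prostacyclin, stood at 9.38, 5.63 and 10.2 CPM in CD4 ThpokAD cells, while CD8 control had 0 counts, so it was at least 239-fold higher. In CD4 control it was at 0.435, 0 and 3.32 CPM. Ptgir passed the low-count filter only through its level in CD4 ThpokAD, so its test was conditioned on that level and supports nothing here. Nt5e, which encodes CD73, the enzyme that makes adenosine outside cells, was the gene that was lower: 65.2, 57.3 and 28.9 CPM in CD4 ThpokAD cells, against 107, 167 and 123 CPM in CD8 control (log2 fold change -1.39, SE 0.30, adjusted p = 0.0301). Against CD4 control its log2 fold change was -1.24 (SE 0.30) and was not called (adjusted p = 0.072).

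Several of the other calls did not hold in every fit with 1 library left out. Nt5e lost its call without CD4 control replicate 3, CD4 ThpokAD replicate 2, or CD8 control replicates 2 or 3 (adjusted p = 0.0413 to 0.0852 over all fits without a library), and Ezr without any 1 CD4 ThpokAD library or CD8 control replicate 1 or 2 (0.016 to 0.089). Sik3 lost it without CD4 control replicate 1 or 3, CD4 ThpokAD replicates 2 or 3, or CD8 control replicates 1 or 2 (0.0187 to 0.0961), and Prkar1a without any 1 library but CD8 control replicate 3 (0.0231 to 0.129). RefSeq windows on chromosome 18, where Crem and Egr1 lie, were left out here, as they were for the members. The rest cover 9 of the 12 genes Sik1 and the CREB targets. Each of the 9 has a short site in at least 1 window. The 20.8% given above is a share of single windows, so it is no background for this count by gene. Areg and Dusp1 have the full palindrome. Genes were listed as CREB targets partly because such sites are known there.

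Last, the tested genes with a pattern most like the 3 widest-ranging members were found by the root mean square difference of log2 CPM, each gene centred on its own mean, over the 9 libraries and among 7966 genes. Nearest to Crem were Nfkbiz (0.288), a regulator of NF-kappa B, Tgif1 (0.337), a homeobox repressor, and the costimulatory receptor Icos (0.380). Nearest to Pde4d were the ubiquitin ligase Rnf19a (0.196), the NF-kappa B subunit Rel (0.236) and the calcium channel Orai1 (0.252). Among those nearest to Pde4b were the chaperone Hspa5 (0.147) and Smim7 (0.178). Nfkbiz averaged 816 CPM in CD4 ThpokAD cells, 61.01 CPM in CD8 control cells and 1445 CPM in CD4 control, and Rel 232, 46.4 and 349 CPM in the same order.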

How the data were processed

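Column-extracted RNA was amplified with low-input reagents that carry no strand information and read from both ends over 126 bp, per the labels' protocols. The tools named in the submitters' processing notes are bcl2fastq 2.17, Trimmomatic, STAR, HTSeq and DESeq2, with the mm10 build and no roles. Which annotation and strand setting were used was not given in the sources used here. For each gene symbol the authors deposited raw whole-number counts, and these were used. A second deposited table, of scaled values, was not used here.

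Libraries were grouped by title, 3 to a group. Low-count genes were removed with filterByExpr (minimum count 10, minimum total 15), leaving 15738 of 48663 genes. Tests were edgeR quasi-likelihood tests (edgeR 4.0.16, R 4.3.3) with TMM scaling, fitted to all 9 libraries together, and p-values were adjusted by Benjamini-Hochberg over all genes of a comparison. A gene was called at an adjusted p under 0.05. The script was tested on simulated data. SE was computed as log2 fold change over the root of F. Levels are CPM on TMM-scaled library sizes, and levels per kb were divided by exon length in GENCODE M21. A fold against a group without counts used 3 counts over that group. Such a bound covers counting error alone, because these reads carry no molecular identifiers and are not independent molecules. Alternatives were RLE size factors, DESeq2 1.42.0, no filter, 6 libraries, the replicate number as a block, bias-adjusted deviances (added after seeing the data) and leaving out each library.

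The members and lists were chosen with earlier results of these data known. Genes named were the 10 members, 3 genes of most alike pattern (mean of at least 10 CPM) for each of the 3 widest-ranging members (1 of these is not reported here), up to 4 called genes per list and comparison by smallest adjusted p, and Ptger2, Gnas, Prkaca, Prkar1a, Pde4a, Nr4a1 and Zbtb7b. Pde2a and Cenpo, and in some comparisons Areg, Nt5e and Ptgir, were named after their values were seen.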

Additional observations from a re-analysis of the deposited data

How the results depend on the processing

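Of the 10 members, 4 were called in CD4 ThpokAD over CD4 control, 2 without the low-count filter and 1 to 3 with 1 library left out; the counts in CD8 control over CD4 control (5, and 5 in each fit without a library) and in CD4 ThpokAD over CD8 control (6, and 4 to 5) stayed within 1.5 times. Other pathway genes called higher in CD4 ThpokAD over CD4 control numbered 1, but 2 by DESeq2 and with only the 6 libraries compared, and 0 to 1 without a library. Those called lower numbered 2, but 10 by DESeq2, 1 without the filter, 5 with 6 libraries, 4 with bias-adjusted deviances and 0 to 6 without a library. In CD8 control over CD4 control, 0 were higher, but 1 by DESeq2 and with bias-adjusted deviances, and 0 to 1 without a library. In CD4 ThpokAD over CD8 control, 1 was lower, but 2 by DESeq2, 0 with 6 libraries and 0 to 1 without a library. The cause was not tested, though fewer libraries and DESeq2's own variance model are part of those settings' construction.

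Between groups, same-numbered libraries' deviations from their group means correlated at -0.0504 to 0.0644. Those of differently numbered libraries correlated at -0.0476 to 0.035. The replicate numbers thus showed no clear pairing, but with 3 libraries to a group this check cannot exclude it. With the replicate number as a block, 0 other pathway genes were lower in CD4 ThpokAD over CD4 control, 1 was higher in CD8 control over CD4 control and 0 were lower in CD4 ThpokAD over CD8 control, and the log2 fold changes of Pde4a (0.27) and Prkaca (0.0149) in CD8 control over CD4 control changed sign. Among named genes the block ended the calls of Adcy3, Gem, Adk and Abcc4 in CD4 ThpokAD over CD4 control, of Atf1, Prkar1a and Ramp1 in CD8 control over CD4 control, and of Ptger4, Adcy7, Ezr, Prkar1a, Ptgir and Nt5e in CD4 ThpokAD over CD8 control.

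Signs also changed with 1 library left out, in comparisons where the gene was not called. Pde4a ran from -0.60 to 3.46 in CD4 ThpokAD over CD4 control, from -0.83 to 2.96 in CD8 control over CD4 control and from -0.48 to 1.21 in CD4 ThpokAD over CD8 control. Prkar1a ran from -0.0495 to 0.0818 in CD4 ThpokAD over CD4 control. Among the members, Pde7a ran from -0.0668 to 0.0902 in CD4 ThpokAD over CD4 control and Ptger4 from -0.546 to 0.00938 in CD8 control over CD4 control. Gnas ran from -0.14 to 0.21 and Prkaca from -0.21 to 0.34 in CD8 control over CD4 control.

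Over all genes in CD4 ThpokAD over CD4 control, 285 were higher and 146 lower, 752 and 538 by DESeq2, 195 and 86 with the block, and 389 and 225 with bias-adjusted deviances. In CD8 control over CD4 control they were 808 and 1031, and 1313 and 1664 by DESeq2. In CD4 ThpokAD over CD8 control they were 729 and 301, 1412 and 749 by DESeq2, and 1109 and 530 with bias-adjusted deviances. Levels of a few CPM, such as those of Pde4a, Ptger2 and Gnas, rest on few reads. Their errors were not alike, with an SE of 1.38, 0.60 and 0.34 in CD4 ThpokAD over CD4 control.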
